A study of Mus musculus with 24 samples.

Results

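Testes of *Atad2* knockout (KO) mice were compared between postnatal day 24, with 2 libraries, and postnatal day 22, with 4 libraries. These 6 libraries were all those labelled KO and day 22 or KO and day 24 among the 24 of the series, and every gene of the deposited count tables was examined. All KO animals were homozygous for an *Atad2* allele that carries a *lacZ* trap cassette within the gene and from which the *neo* cassette and 1 downstream exon had been removed by a Cre recombinase driven by the *CMV* promoter, so that the allele was altered in every cell of the animal. The wild-type (WT) libraries of the same ages, 4 of day 22 and 2 of day 24, are set beside them where a value is compared. The labels give testis as the source. The paper describes this set as RNA of harvested testes and lists its fractionated round spermatids as a separate set. The extract protocol of the labels also refers to purification of spermatogenic cell fractions. The strain was not given in the sources used here, nor was it said whether each library came from 1 animal. The p-values therefore measure only the spread between libraries, which the main fit took over all 24 of the series. Libraries are named by genotype, day and replicate, as in KO_d22_2.

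In the first wave of mouse spermatogenesis germ cells pass in near synchrony through meiosis, then through the round spermatid stage, in which the acrosome is built and the haploid genome is transcribed, and then through elongation, in which histones give way to transition proteins and protamines, the nucleus is shaped by the manchette and the flagellum is completed. ATAD2 is a chromatin ATPase with a bromodomain that is abundant in male germ cells, and the series followed knockout and wild-type testes through the days on which post-meiotic cells accumulate, to learn what becomes of gene expression without it. Many genes whose proteins act in elongation are already transcribed in round spermatids. In RNA of testis tissue a gain or loss of cells of a type and more or less RNA per cell cannot be told apart.

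The 6 KO libraries held 14353910 to 16970714 read pairs assigned to genes, and 3 pairs corresponded to 0.180 to 0.207 CPM, the unit used below, which is a count relative to the scaled size of its library. *Atad2* itself, measured over the whole gene and therefore including its part before the cassette, lay at 33.8, 45.3, 41.1 and 35.3 CPM in the day 22 KO libraries and at 43.1 and 45.4 CPM at day 24, below every WT library of these ages, which lay between 76.1 and 132 CPM. Markers of Sertoli, Leydig, peritubular and germ cells were present in every library, and the 27 Sertoli markers summed to 2736 to 3431 CPM at day 22 and 2628 to 2775 CPM at day 24 in KO. A pair of day 22 KO libraries stood apart. KO_d22_2 had the highest spermatid scores of its group, with 2.10 for elongating spermatid markers against -0.62, 1.02 and -0.58 in replicates 1, 3 and 4, where a score is the mean over the list of log2 CPM centred on all libraries. KO_d22_4 had the lowest share of pairs with several alignments (4.74%, against 7.58% to 8.50% in the other 5), the lowest share of mitochondrial ribosomal RNA among gene counts (0.170%, against 0.329% to 1.06%) and the lowest scores for Leydig, peritubular, macrophage, endothelial and matrix genes. Over all tested genes the median standard deviation of log2 CPM within day 22 was 0.249 in KO and 0.161 in WT. In KO it was also 0.249 without KO_d22_2. The part of these library differences in the results below was not tested beyond leaving out each library.

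From day 22 to day 24, 69 of 17170 tested genes rose in KO testis and none was called lower (edgeR quasi-likelihood test, Benjamini-Hochberg adjusted p under 0.05), which is 0.402% of the genes tested called higher and 0% called lower. At an unadjusted p under 0.05 there were 1230 genes higher (7.16%) and 300 lower (1.75%), and DESeq2 called 102 higher and 6 lower. The median log2 fold change of all genes was 0.03, and 54.7% of them were positive. Both day 24 libraries lay above all 4 day 22 libraries for 11.8% of all genes and below them for 8.1%, and they lay above for all 69 of the called genes. The fitted fold of the 66 called genes with a mean of at least 1 CPM at day 24 ran from 1.42 to 17.2. The other 3, *Zc2hc1b*, *4930509J09Rik* and *4933433H22Rik*, had at most 3 counts in every day 22 library, and no fold is given for them. Of the 69 genes 59 were annotated as protein-coding, and 1 lay on the X chromosome and none on the Y. KO_d22_2 was the highest day 22 library for 62 of the 69, against 4345 of the 17170 genes tested, and KO_d24_1 lay above KO_d24_2 for 67 of the 69, against 8866 of all genes. The 69 were called from these same libraries, so these orders are a description only. A link to the spermatid scores of the libraries was not tested.

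The number of called genes depended on single libraries. Without KO_d22_2 it was 597, of which 585 were higher (3.41% of the 17149 genes tested there) and 12 lower (0.07%) and which included all 69. Without KO_d22_1 it was 33, without KO_d22_3 10, without KO_d22_4 9, without KO_d24_1 0, with 682 genes at an unadjusted p under 0.05 and a lowest adjusted p of 0.999, and without KO_d24_2 59. A fit of the 6 KO libraries alone, which takes the spread from them and not from all 24, called none, with 939 at an unadjusted p under 0.05. With the filter on low counts removed 47 of the 69 kept their call, and those lost included *Tssk6*, *Actl9*, *Fscn3*, *Cst8*, *Hdac11* and *Fam8a1*, at adjusted p between 0.0521 and 0.0747. In each of the 6 fits without 1 library all 69 genes had a positive log2 fold change. Since their day 24 libraries lay above all day 22 libraries, this sign was near certain beforehand. The fitted fold moved by more than 1.5 times for 28 of the 69 without KO_d22_2, for 23 without KO_d24_1, for 5 without KO_d24_2 and for at most 1 without each of the others. No gene was called in every one of the 6 fits, 8 genes were called in 5 of them, 20 in 1 of them, and none of the 69 in fewer.

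**Figure D1:**
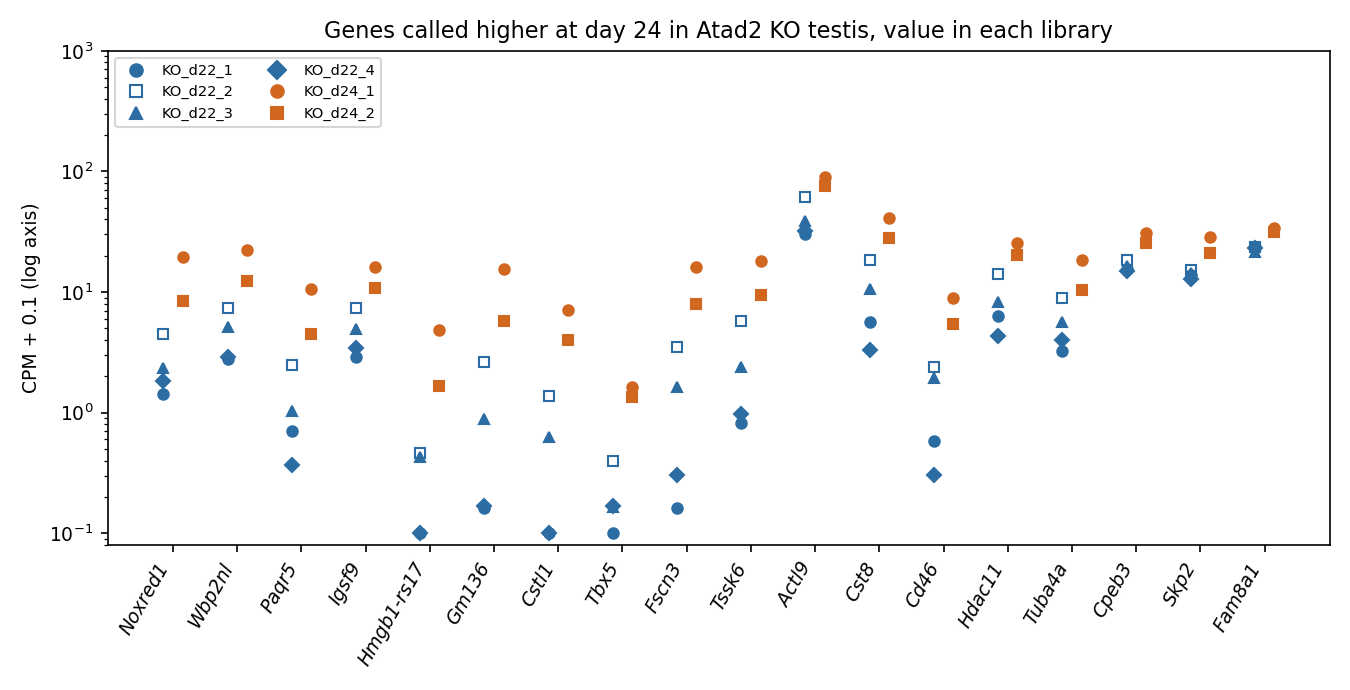
Value of 18 of the called genes in each KO library, as CPM plus 0.1 on a log axis, with the 4 day 22 libraries in blue and the 2 day 24 libraries in orange. For every gene shown both day 24 points lie above all 4 day 22 points, KO_d22_2 (open squares) is the highest day 22 point, and KO_d24_1 lies above KO_d24_2.

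The genes with the lowest adjusted p were *Noxred1* and, tied after it, *Wbp2nl*, *Paqr5*, *Igsf9*, *Hmgb1-rs17* and *BC055111*. *BC055111*, a gene of no established role that could not be placed on the genome here, lay at 0.121, 0.721, 0.395 and 0.134 CPM at day 22 and at 4.63 and 2.22 CPM at day 24, a log2 fold change of 3.27 ± 0.53 (edgeR adjusted p = 0.0104). *Noxred1*, predicted from its sequence to encode an NADP-dependent oxidoreductase, lay at 1.33, 4.39, 2.24 and 1.74 CPM in the day 22 libraries and at 19.3 and 8.37 CPM at day 24. The lower day 24 library lay above the highest day 22 library, and the log2 fold change was 2.50 ± 0.35 (SE, edgeR adjusted p = 0.00752), with 1.78 to 2.98 over the alternatives. *Wbp2nl*, which encodes a WW-domain-binding protein of the postacrosomal sheath, stood at 2.66, 7.21, 5.01 and 2.82 CPM at day 22 and at 22.0 and 12.2 CPM at day 24, a log2 fold change of 1.94 ± 0.29 (edgeR adjusted p = 0.0104). *Paqr5*, a membrane progestin receptor, went from 0.605, 2.40, 0.923 and 0.268 CPM to 10.6 and 4.38 CPM, with a log2 fold change of 2.80 ± 0.45 (edgeR adjusted p = 0.0104) and 2.03 to 3.62 over the alternatives. *Igsf9*, an immunoglobulin-superfamily adhesion protein, stood at 2.78, 7.21, 4.81 and 3.35 CPM and then at 16.2 and 10.8 CPM, a log2 fold change of 1.57 ± 0.25 (edgeR adjusted p = 0.0104). The groups did not overlap for any of these genes, and all of them kept their call in 5 of the 6 fits that left out 1 library, the exception being the fit without KO_d24_1.

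Genes of sperm chromatin and head formation were among the called genes. *Tssk6*, a testis-specific serine kinase needed for condensation of sperm chromatin, lay at 0.726, 5.65, 2.31 and 0.872 CPM at day 22 and at 17.9 and 9.28 CPM at day 24, a log2 fold change of 2.49 ± 0.51 (edgeR adjusted p = 0.0424). *Actl9*, an actin-like protein of the perinuclear theca, lay at 30.2, 61.7, 38.8 and 31.6 CPM and then at 89.8 and 75.8 CPM, a log2 fold change of 1.03 ± 0.22 (edgeR adjusted p = 0.0427). These were the only 2 of the 583 tested genes of the gene lists that were called, which is below the 0.402% of all genes. Both calls were lost without each of KO_d22_1, KO_d22_3, KO_d22_4 and KO_d24_1, that of *Actl9* also without KO_d24_2 (edgeR adjusted p = 0.0882), and 43 list genes were called without KO_d22_2, where 3.41% of all genes were called higher. *Cd46*, which in the mouse encodes a complement regulator of the acrosomal membrane, went from 0.484, 2.28, 1.85 and 0.201 CPM to 8.77 and 5.30 CPM. *Fscn3*, a testis fascin that bundles actin, went from 0.0605, 3.37, 1.52 and 0.201 CPM to 16.0 and 7.78 CPM. For these genes too the day 24 libraries lay wholly above those of day 22, and the day 22 libraries themselves spread widely, with replicates 1 and 4 low and replicate 2 high. In edgeR the calls of *Tssk6* (adjusted p = 0.0524) and *Fscn3* (0.0509) were lost without WT_d20_2. *Cd46* and *Fscn3* kept their call in 2 of the 6 fits, those without KO_d22_2 and without KO_d24_2, and DESeq2 did not call *Fscn3* (adjusted p = 0.296).

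The promoter of *Tssk6* is shown, with those of *Tmem144* and *Sox5os3*, because the cAMP response element (CRE), bound by the spermatid activator CREM, is the best known motif of post-meiotic promoters and these called genes carry it in whole or in part. Capitals mark the CRE palindrome TGACGTCA or, in *Tssk6*, its first arm TGACG. Sequences run 5′ to 3′ on the gene's own strand, from 250 bases before the start site to 50 after it, and were taken from RefSeq on GRCm38.p6. In *Tssk6* (chr8:69901934-69902233, plus strand) the match begins 73 bases before the start site, in *Tmem144* (chr3:79842630-79842929, minus strand, 1 of its listed starts) 74 bases and in *Sox5os3* (chr6:144672618-144672917, plus strand) 50 bases before it.
Tssk6: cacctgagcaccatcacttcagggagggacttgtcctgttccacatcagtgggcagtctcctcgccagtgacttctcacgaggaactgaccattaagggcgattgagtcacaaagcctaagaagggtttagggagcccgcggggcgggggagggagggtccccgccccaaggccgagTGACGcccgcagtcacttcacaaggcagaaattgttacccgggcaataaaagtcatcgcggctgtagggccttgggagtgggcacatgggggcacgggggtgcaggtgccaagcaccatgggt
Tmem144: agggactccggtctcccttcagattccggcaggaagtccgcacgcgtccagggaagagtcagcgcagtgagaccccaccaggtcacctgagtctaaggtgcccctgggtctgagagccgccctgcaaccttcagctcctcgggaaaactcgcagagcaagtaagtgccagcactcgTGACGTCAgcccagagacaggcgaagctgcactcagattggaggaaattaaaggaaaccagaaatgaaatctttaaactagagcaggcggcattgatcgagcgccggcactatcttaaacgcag
Sox5os3: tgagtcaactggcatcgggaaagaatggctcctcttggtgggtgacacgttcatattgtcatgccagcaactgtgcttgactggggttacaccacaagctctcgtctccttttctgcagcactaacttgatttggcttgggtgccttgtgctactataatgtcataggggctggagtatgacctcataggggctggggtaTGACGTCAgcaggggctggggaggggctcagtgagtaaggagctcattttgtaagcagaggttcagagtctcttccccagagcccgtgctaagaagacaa

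Of the 69 called genes 48 had a promoter in the RefSeq table. On either strand 2 of them (4.17%) held TGACGTCA, against 3.25% of the 12861 tested genes with a promoter, and 17 (35.4%) held TGACG, which every TGACGTCA also contains, against 31.6%. The letters GTTGCC, 1 arm of the element bound by the meiotic and spermatid regulator RFX2, was found in 7 (14.6%), against 15.4%. These shares lay close to those of all tested genes, and a match describes letters in the window only. *Tmem144*, a predicted carbohydrate transporter, went from 10.8, 17.9, 11.9 and 11.8 CPM at day 22 to 29.5 and 21.3 CPM at day 24, with a log2 fold change of 0.95 ± 0.21 (edgeR adjusted p = 0.0427). *Sox5os3*, an RNA antisense to *Sox5*, went from 0.363, 2.83, 0.791 and 0.402 CPM to 6.77 and 5.03 CPM. Leaving out 1 library at a time, the call of *Tmem144* was kept in 2 of 6 fits and that of *Sox5os3* in 1, and DESeq2 did not call *Sox5os3* (adjusted p = 0.0508). In edgeR the call of *Tmem144* was also lost with the other size factors (0.0534) and without the filter (0.0544), and that of *Sox5os3* without the filter (0.0572) and without WT_d20_2 (0.0534).

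The 10 largest rises among called genes that averaged at least 1 CPM at day 24 were those of *Hmgb1-rs17*, *1700080E11Rik*, *1700008P02Rik*, *1700042G07Rik*, *1700034G24Rik*, *1700029B22Rik*, *Smok2b*, *Gm136*, *Cstl1* and *Tbx5*, with log2 fold changes of 4.11 down to 3.55. These rest on 7 to 56 counts in all over the 4 day 22 libraries, and over the alternatives they ran, for example, from 3.12 to 4.76 for *Hmgb1-rs17*, from 3.12 to 5.03 for *Smok2b*, from 3.09 to 4.92 for *Cstl1* and from 3.14 to 4.76 for *Tbx5*, so that their order is not firm. Most of them have no established role. *Hmgb1-rs17*, a sequence related to the chromatin protein gene *Hmgb1*, had 0, 0.361, 0.330 and 0 CPM at day 22 and 4.70 and 1.57 CPM at day 24 (log2 fold change 4.11 ± 0.66, edgeR adjusted p = 0.0104). *Smok2b*, a sperm motility kinase, had 0, 0.481, 0.198 and 0 CPM and then 3.18 and 1.57 CPM (3.71 ± 0.67 on the log2 scale, edgeR adjusted p = 0.0311). Both have near-identical copies elsewhere in the genome and pairs with several alignments were discarded, so their levels are uncertain. *Gm136* lay at 0.0605, 2.52, 0.791 and 0.0670 CPM and then at 15.5 and 5.69 CPM. *Cstl1*, which encodes a cystatin-like protein, lay at 0, 1.26, 0.527 and 0 CPM and then at 6.98 and 3.92 CPM (3.56 ± 0.74 on the log2 scale, edgeR adjusted p = 0.0460). *Tbx5*, a T-box transcription factor known from heart and forelimb development, lay at 0, 0.301, 0.0659 and 0.0670 CPM and then at 1.52 and 1.24 CPM (3.55 ± 0.65 on the log2 scale, edgeR adjusted p = 0.0254). All 10 were at or near 0 in KO_d22_1 and KO_d22_4 and detected in KO_d22_2 and in both day 24 libraries. Of the 6 fits that left out 1 library, *Cstl1* and *Tbx5* kept their call in 1, that without KO_d22_2, and *Smok2b* and *Gm136* in 2. DESeq2 did not call 5 of the 10, *Cstl1* (DESeq2 adjusted p = 0.553), *1700008P02Rik* (0.382), *1700080E11Rik* (0.178), *Gm136* (0.140) and *1700042G07Rik* (0.103). The call of *Cstl1* was also lost in edgeR with the other size factors (adjusted p = 0.0503), without the filter (0.0656) and without WT_d20_2 (0.104), and those of *Gm136* (0.0646), *1700008P02Rik* (0.0589) and *1700080E11Rik* (0.0558) without the filter. In WT all 10 also had a positive log2 fold change, and 4 of them had no count in any WT day 22 library.

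A second kind of called gene was expressed at day 22 in every library and rose by a smaller fold. *Skp2*, the substrate-binding F-box protein of an SCF ubiquitin ligase, lay at 13.8, 15.03, 14.2 and 12.7 CPM at day 22 and at 28.7 and 21.1 CPM at day 24, a log2 fold change of 0.84 ± 0.14 (edgeR adjusted p = 0.0133). *Cpeb3*, which binds cytoplasmic polyadenylation elements of mRNAs, lay at 15.5, 18.2, 16.3 and 14.95 CPM and then at 30.9 and 25.4 CPM (0.79 ± 0.13, edgeR adjusted p = 0.0144). The day 22 libraries of both genes lay close together and the day 24 libraries stood clear of them. *Prkcd*, a protein kinase C isoform, lay at 12.2, 12.3, 12.8 and 8.51 CPM and then at 34.7 and 22.0 CPM (1.31 ± 0.25, edgeR adjusted p = 0.0231). *Fam8a1* had the smallest called rise, from 23.4, 23.7, 21.3 and 23.3 CPM to 33.8 and 31.2 CPM (0.50 ± 0.10, edgeR adjusted p = 0.0324). *Hdac11*, the class IV histone deacetylase, lay at 6.17, 14.0, 8.11 and 4.22 CPM and then at 25.6 and 20.0 CPM (1.48 ± 0.32, edgeR adjusted p = 0.0427). *Tuba4a*, an alpha-tubulin, lay at 3.15, 8.78, 5.54 and 3.89 CPM and then at 18.2 and 10.3 CPM (1.41 ± 0.28, edgeR adjusted p = 0.0295). *Hdac11* and *Tuba4a* shared the order of the day 22 libraries seen for the spermatid genes, with replicate 2 highest, while *Prkcd* did not. Of the 6 fits without 1 library *Skp2* kept its call in 5, *Cpeb3* in 4, *Prkcd* in 3, *Tuba4a* in 2 and *Hdac11* and *Fam8a1* in 1, that without KO_d22_2.

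*Cst8* encodes a cystatin of the male tract that is known from both spermatids and epididymis. It lay at 5.51, 18.3, 10.5 and 3.22 CPM at day 22 and at 41.2 and 28.2 CPM at day 24 (log2 fold change 1.88 ± 0.40, edgeR adjusted p = 0.0428), and of the fits without 1 library only that without KO_d22_2 kept its call. The call was also lost without WT_d20_2 (edgeR adjusted p = 0.0659). The epididymis score, over 6 tested markers, was 2.50 in KO_d22_1 and in KO_d24_2 and between -1.93 and -1.57 in the other 4 libraries, while *Cst8* was higher in KO_d24_1 than in KO_d24_2 and higher in KO_d22_2 than in KO_d22_1. The part of epididymal RNA in the *Cst8* values was not tested. The 12 epididymal markers summed to between 4.42 and 137 CPM at day 22 and between 6.56 and 167 CPM at day 24, with *Lcn8*, *Lcn9*, *Lcn10* and *Ovch2* at 0 throughout.

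The genes of nuclear compaction had the highest median log2 fold change of the gene lists but did not pass the test over all genes. All 7 tested genes of the list of transition proteins, protamines and spermatid linker histones had a positive log2 fold change (54.7% of all genes). All 7 also had both day 24 libraries above all 4 day 22 libraries (11.8% of all genes) and were higher at an unadjusted p under 0.05 (7.16% of all genes). None was called by edgeR, and DESeq2 called none and left the adjusted p of some of them missing. Their median log2 fold change was 2.87 beside 0.03 for all genes. *Prm1*, the first protamine, lay at 1.69, 65.3, 21.6 and 1.34 CPM at day 22 and at 443 and 147 CPM at day 24. *Tnp2*, transition protein 2, lay at 1.33, 48.1, 18.5 and 1.34 CPM and then at 219 and 84.4 CPM. The day 22 libraries differed among themselves by more than an order of magnitude for both genes, and the fitted log2 changes were 3.71 ± 1.002 for *Prm1* (edgeR adjusted p = 0.136) and 3.13 ± 0.91 for *Tnp2* (edgeR adjusted p = 0.176). Without KO_d22_2 the edgeR adjusted p of *Prm1* was 0.00566 and that of *Tnp2* 0.00717, 5 of the 7 genes were called, beside 3.41% of all genes called higher there, and the median was 4.17. In each of the other 5 fits without 1 library none of the 7 was called, and without KO_d24_1 the median was 1.91. *Prm2* had an adjusted p of 0.209 in edgeR with all libraries and *Tnp1* one of 0.218.

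Of the 23 elongating spermatid markers 1 was called. All 23 had a positive log2 fold change (54.7% of all genes), 21 had day 24 libraries wholly above day 22 (11.8% of all genes) and 18 were higher at an unadjusted p under 0.05 (7.16% of all genes), and *Tssk6* was the one called. The median log2 fold change of the 23 was 1.46. Without KO_d22_2 12 were called, beside 3.41% of all genes called higher there, and the median was 2.08. That library had the highest spermatid scores of day 22, so leaving it out enlarges these rises. Without each of KO_d22_1, KO_d22_3 and KO_d22_4 none was called, with medians of 1.19, 1.49 and 1.26. The list score was 0.48 ± 1.32 (SD, n = 4) at day 22 and 2.72 ± 0.47 (SD, n = 2) at day 24. With 2 against 4 libraries an exact two-sided permutation test cannot give a p below 0.133, and the scores were not tested. All 20 round spermatid markers were positive with a median of 0.89, 8 had no overlap and none was called, while 3 had an unadjusted p under 0.05 and DESeq2 called none. With KO_d22_2 left out 3 of these 20 were called, beside 3.41% of all genes called higher there, and the median was 1.34. Without each other day 22 library none of these 20 was called. Their score was -0.03, 1.67, 0.84 and 0.27 in the day 22 libraries and 1.72 and 1.66 at day 24, so that KO_d22_2 reached the level of day 24. The pachytene spermatocyte score was -0.14, 0.46, 0.06 and 0.07 at day 22 and 0.38 in both day 24 libraries, and there too KO_d22_2 was highest of all 6.

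**Figure D2:**
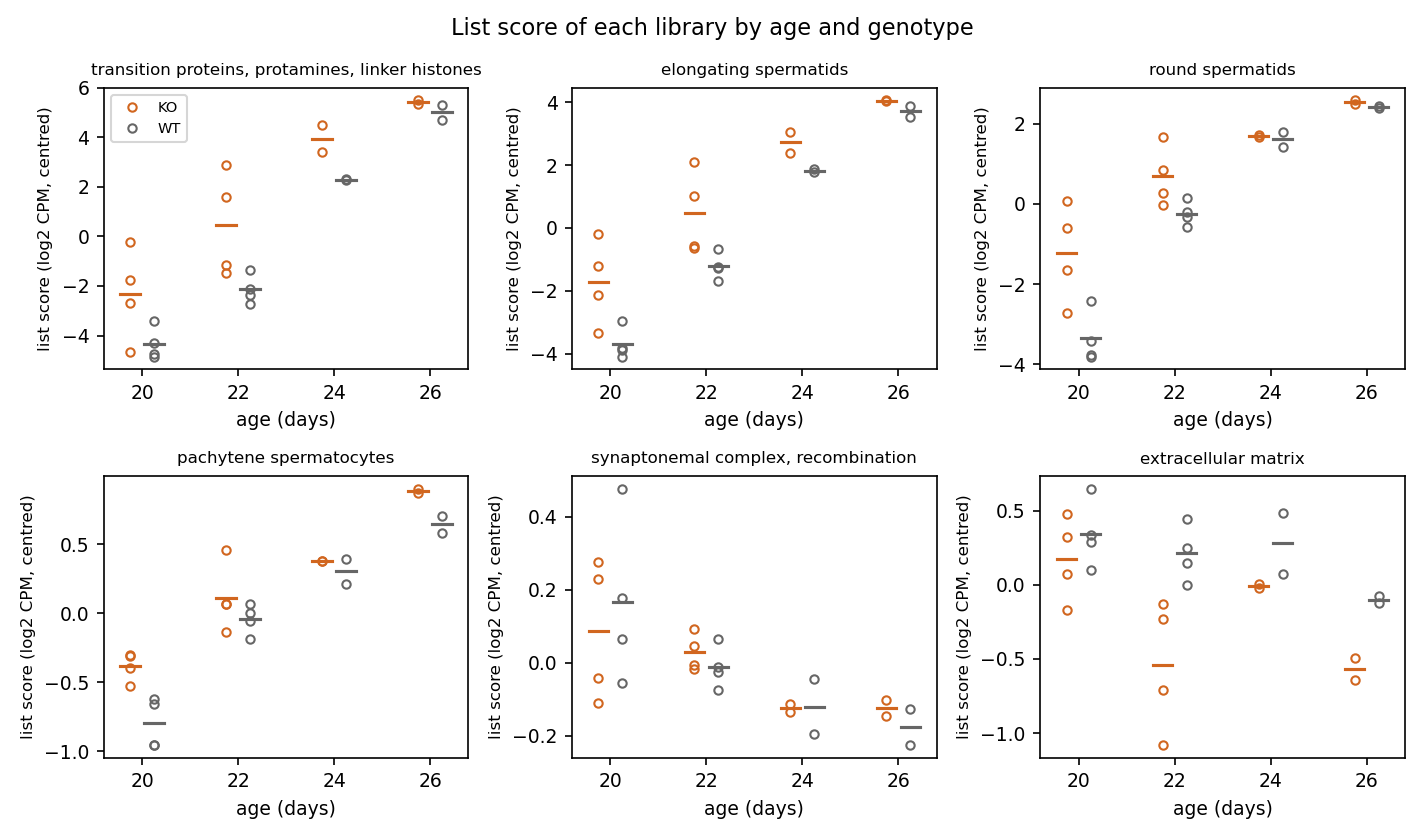
List score (mean centred log2 CPM) of each library against age in days, KO in orange and WT in grey, with a bar at each group mean and 1 panel for each of 6 gene lists. In KO the elongating spermatid score spreads from -0.62 to 2.10 at day 22 and both day 24 libraries lie above all 4 of day 22, while the round spermatid score of KO_d22_2 lies within the day 24 range.

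Lists that describe parts of the spermatid fell between these. For these lists too the shares over all genes were 54.7% positive and 11.8% with no overlap upward. Of 34 acrosome genes 33 were positive, 16 had no overlap upward and 1, *Actl9*, was called, and the median log2 fold change was 0.91. Of 23 genes of the outer dense fibre, fibrous sheath and mitochondrial sheath all were positive, 11 had no overlap and none was called, with 7 at an unadjusted p under 0.05 and none called by DESeq2. Among them *Spata18*, a regulator of mitochondrial quality, lay at 13.2, 43.2, 22.2 and 16.5 CPM at day 22 and at 68.9 and 44.8 CPM at day 24 (edgeR adjusted p = 0.251). *Gsg1*, a germ-cell-specific membrane protein gene, lay at 28.7, 113, 58.7 and 38.0 CPM and then at 167 and 127 CPM (edgeR adjusted p = 0.376). In both genes the lower day 24 library exceeded KO_d22_2 by little. All 12 sperm-egg fusion genes were positive, 9 had no overlap, none was called by edgeR or DESeq2 and 7 had an unadjusted p under 0.05. *Tmem81*, a sperm protein of the complex that fuses with the egg, lay at 4.90, 9.20, 7.05 and 5.30 CPM and then at 12.2 and 13.01 CPM (log2 fold change 0.93 ± 0.27, edgeR adjusted p = 0.159). It was among the fusion genes called without KO_d22_2, at an edgeR adjusted p of 0.0197, and 4 of the 12 were called there. In that fit 7 acrosome and 3 sheath genes were called, with medians of 1.32 and 1.43, beside 3.41% of all genes called higher. Without each of KO_d22_1, KO_d22_3 and KO_d22_4 no acrosome, sheath or fusion gene was called.

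Of 23 genes of nuclear shaping and the manchette 21 were positive with a median of 0.47, 9 had no overlap, none was called by edgeR, 8 had an unadjusted p under 0.05 and DESeq2 called 2. *Klc3*, a kinesin light chain of spermatids, lay at 0.363, 1.08, 0.857 and 0.737 CPM at day 22 and at 4.01 and 1.57 CPM at day 24 (edgeR adjusted p = 0.0562). *Fam71f2*, a testis gene, lay at 2.78, 16.7, 7.25 and 3.82 CPM and then at 38.1 and 21.8 CPM (edgeR adjusted p = 0.0705). Both were called without KO_d22_2, as were 8 of the 23 genes, beside 3.41% of all genes called higher there. Without each of KO_d22_1, KO_d22_3 and KO_d22_4 none of the 23 was called. In the list of testis kinases and phosphatases 12 of 19 were positive, 3 had no overlap and 1, *Tssk6*, was called, beside 54.7% of all genes positive and 11.8% with no overlap upward. Of 44 axoneme genes 37 were positive but the median was 0.14 and 3 had no overlap, below the 11.8% of all genes, none was called by edgeR, 1 had an unadjusted p under 0.05 with a positive change, that of *Tekt5*, and DESeq2 called 1. Without KO_d22_2 42 of the 44 were positive, the median was 0.25 and 1 was called, beside 3.41% of all genes called higher. There 18 had no overlap upward, for which the share of all genes was not taken. *Tekt5*, a tektin of the flagellar doublets, lay at 7.26, 26.4, 15.2 and 12.9 CPM and then at 40.3 and 29.8 CPM (log2 fold change 1.18 ± 0.29, edgeR adjusted p = 0.0705). Among 31 ubiquitin and proteasome genes of spermatids 9 had no overlap upward and 4 downward, beside 11.8% and 8.1% of all genes, and none was called by edgeR or DESeq2, with 6 higher and 1 lower at an unadjusted p under 0.05. *Rnf133*, a testis ubiquitin ligase, lay at 1.03, 9.68, 4.61 and 1.27 CPM and then at 19.2 and 16.6 CPM (edgeR adjusted p = 0.104).

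Of 19 sperm ion channel genes 17 were positive with a median of 0.23, 4 had no overlap upward beside 11.8% of all genes, 2 had an unadjusted p under 0.05 and neither edgeR nor DESeq2 called any. With KO_d22_2 left out 13 had no overlap upward, for which the share of all genes was not taken. There the median was 0.33 and edgeR called 1, beside 3.41% of all genes called higher. *Efcab9*, a calcium sensor of the CatSper channel, lay at 13.7, 30.5, 19.3 and 11.1 CPM at day 22 and at 41.3 and 40.8 CPM at day 24 (log2 fold change 1.14 ± 0.42, edgeR adjusted p = 0.335). *Atp1a4*, the sperm sodium pump subunit, lay at 13.9, 80.3, 38.6 and 17.6 CPM and then at 120 and 95.7 CPM (edgeR adjusted p = 0.524). Of 21 testis energy isoforms 18 were positive with a median of 0.24, and 8 had no overlap upward (11.8% of all genes), among them *Gapdhs*, the sperm glycolytic dehydrogenase, at 17.6, 77.1, 34.7 and 20.2 CPM and then at 117 and 80.7 CPM (edgeR adjusted p = 0.522). None of these was called by either tool, and 3 were higher and 1 lower at an unadjusted p under 0.05. Of 32 genes of translation delay and mRNA storage 14 were positive, 5 had no overlap downward beside 8.1% of all genes and 2 had an unadjusted p under 0.05, with none called by either tool. *Tdrkh*, of the piRNA pathway, lay at 62.3, 64.0, 54.6 and 66.2 CPM and then at 43.2 and 48.2 CPM (log2 fold change -0.43 ± 0.15, edgeR adjusted p = 0.282). In each of *Efcab9*, *Atp1a4* and *Gapdhs* KO_d22_2 was the highest day 22 library, and for *Tdrkh* the day 22 libraries lay closer together.

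**Figure D3:**
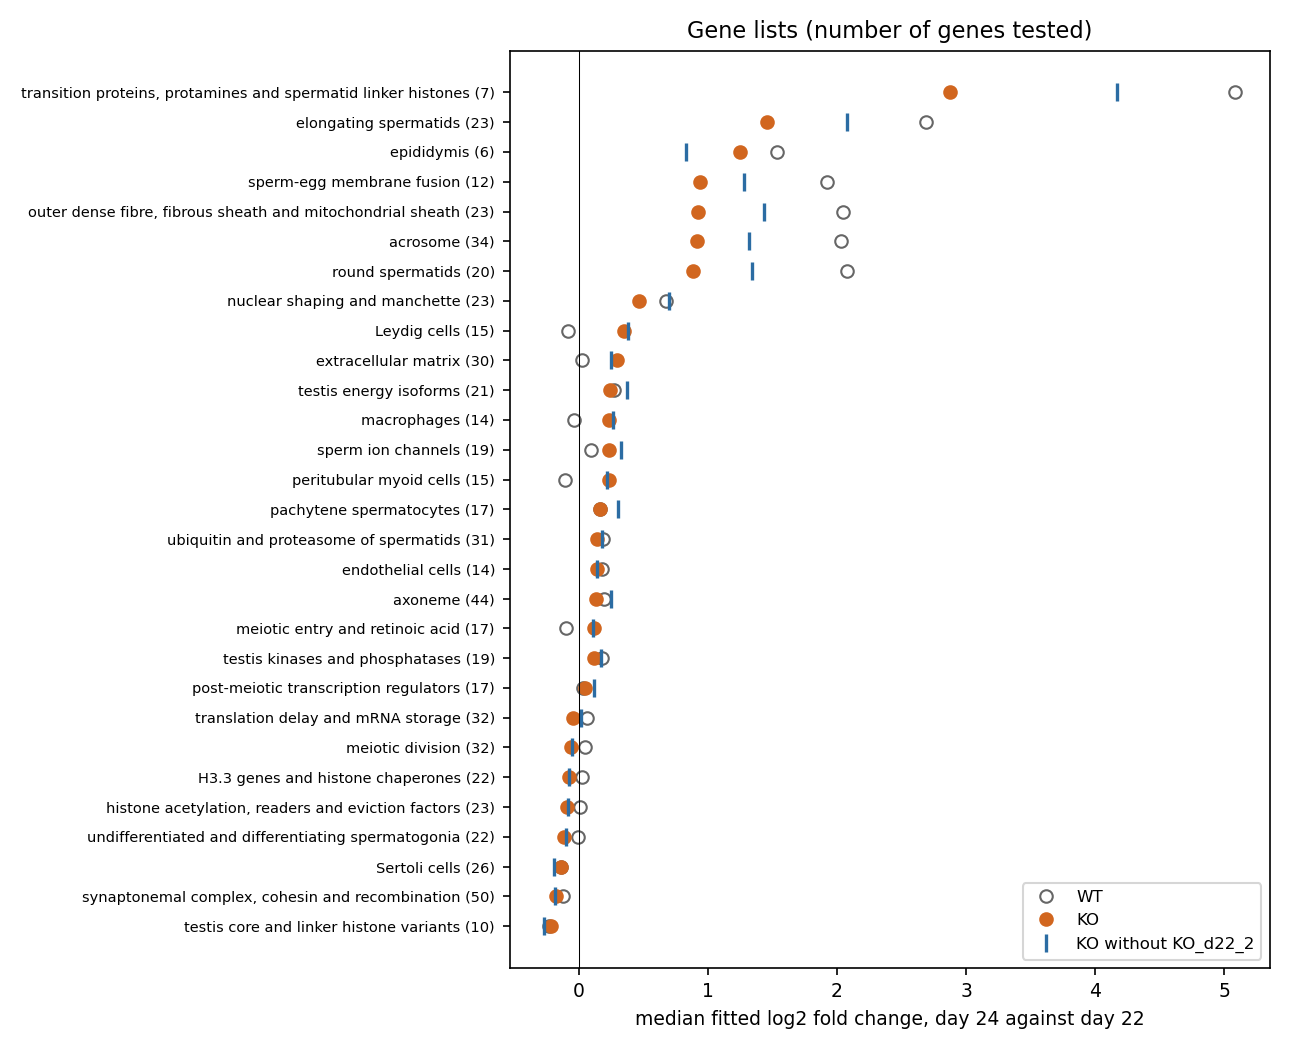
Median fitted log2 fold change of day 24 against day 22 for each gene list with at least 5 genes tested, in KO with all libraries (filled orange), in KO without KO_d22_2 (blue bars) and in WT (open grey). The lists of round spermatids, elongating spermatids, nuclear compaction, acrosome, sheaths and fusion lie right of 0 in both genotypes, from 0.89 to 2.87 in KO.

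The lists of chromatin regulation had medians near 0, with members on both sides. Of 10 tested testis histone variants *H2afb1*, a short H2A variant of spermatids, was the one higher with no overlap, near the 11.8% of all genes, and 1 other was lower with no overlap. *H2afb1* lay at 0.605, 8.24, 3.95 and 0.603 CPM at day 22 and 21.3 and 10.1 CPM at day 24 (log2 fold change 2.22 ± 0.68, edgeR adjusted p = 0.198). The median of this list was -0.22 while its score differed by 0.18 between the days, so the 2 summaries had opposite signs. Of 22 genes for H3.3 and the histone chaperones none was called by edgeR or DESeq2, 1 had an unadjusted p under 0.05, and 3 had day 24 libraries wholly below day 22, beside 8.1% of all genes. *H3f3b*, 1 of the 2 genes for histone H3.3, was the one with the lowest p, at 668, 675, 607 and 667 CPM at day 22 and 495 and 520 CPM at day 24 (log2 fold change -0.37 ± 0.14, edgeR adjusted p = 0.332). *Asf1b*, a chaperone of H3 and H4, lay at 65.9, 61.3, 58.1 and 65.1 CPM and then at 52.8 and 53.4 CPM (edgeR adjusted p = 0.725). Neither gene passed the test, although in both the groups did not overlap. Among 23 genes of histone acetylation, its readers and histone eviction none was called by edgeR or DESeq2 and 9 were positive, 4 had day 24 libraries wholly below day 22 (8.1% of all genes) and 2 wholly above (11.8%). Those 2, *Trim66* and *Chd5*, were also the ones with an unadjusted p under 0.05. *Chd5*, a remodeller of the histone-to-protamine transition, lay at 30.0, 119, 68.9 and 38.2 CPM and then at 155 and 132 CPM (edgeR adjusted p = 0.474). *Trim66*, a testis chromatin reader, lay at 4.11, 15.2, 10.6 and 7.64 CPM and then at 16.1 and 19.4 CPM (edgeR adjusted p = 0.418). The median of this list was -0.09 and its score differed by 0.05, again of opposite sign. *Fhl5*, a coactivator of CREM, lay at 6.29, 30.4, 15.4 and 4.02 CPM and then at 55.4 and 35.6 CPM (edgeR adjusted p = 0.235), the lowest p of 17 post-meiotic regulators, of which 11 were positive.

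No gene was called lower by edgeR, and the 10 genes with the lowest p for a fall all had both day 24 libraries below all 4 of day 22. *Ppp2r2c*, a regulatory B subunit of protein phosphatase 2A, came nearest, at 16.1, 9.38, 11.1 and 19.8 CPM at day 22 and 7.18 and 3.47 CPM at day 24 (log2 fold change -1.41 ± 0.33, edgeR adjusted p = 0.0586). *Rbmxl1*, an RNA-binding retrogene related to *Rbmx*, lay at 28.7, 23.8, 29.5 and 30.5 CPM and then at 18.7 and 21.5 CPM (-0.49 ± 0.12, edgeR adjusted p = 0.0857). *Tuba1a*, an alpha-tubulin, lay at 165, 131, 166 and 143 CPM and then at 112 and 111 CPM (-0.44 ± 0.13, edgeR adjusted p = 0.174). The others were *Pex10*, of peroxisome biogenesis, *Cep68*, of centrosome cohesion, *Zfp280b*, *Pitrm1*, a mitochondrial peptidase, *B3galnt1*, a glycosyltransferase, *Rbmx2*, a spliceosomal protein, and *Dph2*, of diphthamide synthesis, with adjusted p from 0.118 to 0.182. DESeq2 called 6 of these 10 lower, *Ppp2r2c*, *Rbmxl1*, *Cep68*, *Zfp280b*, *Pitrm1* and *Tuba1a*, with adjusted p from 0.00585 to 0.0353. Without KO_d22_2 edgeR called 12 genes lower, which were 9 of these 10, all but *Rbmx2*, together with *Thap11*, *Fam19a5* and *Sohlh2*.

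**Figure D4:**
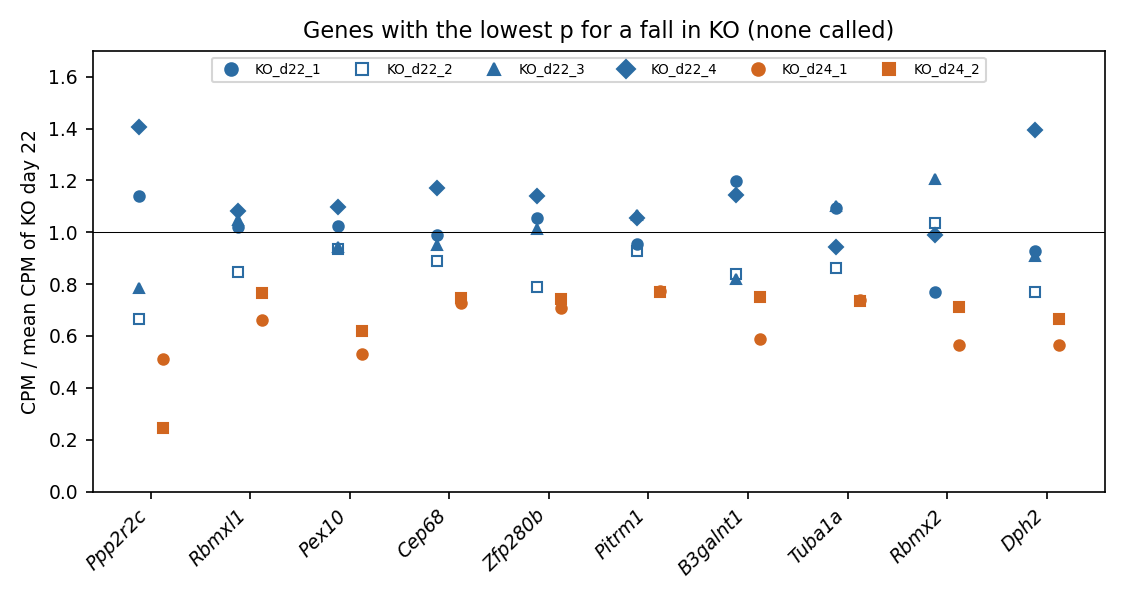
CPM of each KO library divided by the mean of day 22 for the 10 genes with the lowest p for a fall, on an axis from 0, day 22 in blue and day 24 in orange. Both day 24 points lie below all 4 day 22 points for each gene, and KO_d22_2 (open squares) is the lowest or second lowest day 22 point for all but *Rbmx2*.

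Lists of earlier germ cells had medians of either sign. Of 17 pachytene spermatocyte genes 11 were positive with a median of 0.16, and of 17 genes of meiotic entry and retinoic acid 10 were positive with a median of 0.12. Over the fits without 1 library these medians ran from 0.06 to 0.30 and from 0.02 to 0.21. Neither list held a gene called by edgeR with all libraries, 1 pachytene gene was called by DESeq2, and at an unadjusted p under 0.05 there were 3 pachytene genes higher and 1 lower and no gene of meiotic entry. With KO_d22_2 left out edgeR called 2 pachytene genes, beside 3.41% of all genes called higher there. Of 50 genes of the synaptonemal complex, cohesin and recombination 41 were negative, 14 had day 24 libraries wholly below day 22 beside 8.1% of all genes, 5 had an unadjusted p under 0.05 with a negative change and none was called by edgeR or DESeq2, and the median was -0.18. *Spata22*, needed for meiotic recombination, lay at 48.5, 45.4, 47.7 and 52.4 CPM at day 22 and at 29.4 and 33.7 CPM at day 24 (log2 fold change -0.62 ± 0.22, edgeR adjusted p = 0.290). *Topbp1*, a scaffold of the DNA damage response that acts in silencing of the meiotic sex chromosomes, lay at 226, 197, 190 and 251 CPM and then at 174 and 168 CPM (edgeR adjusted p = 0.336). The day 22 values of both genes lay close together compared with those of spermatid genes. *Ccna2*, cyclin A2, lay at 43.4, 34.1, 41.3 and 38.1 CPM and then at 30.3 and 27.7 CPM (edgeR adjusted p = 0.339), and it had the lowest p of 32 meiotic division genes, whose median was -0.06. *Sohlh2*, a transcription factor of differentiating spermatogonia, lay at 28.9, 21.3, 26.7 and 33.1 CPM and then at 19.8 and 19.7 CPM (edgeR adjusted p = 0.291). *Dmrt1*, a regulator of spermatogonia also made in Sertoli cells, lay at 51.7, 48.7, 56.0 and 66.4 CPM and then at 44.1 and 38.8 CPM (edgeR adjusted p = 0.362). Of the 22 spermatogonial genes 10 were positive and the median was -0.11, or between -0.0955 and -0.0142 in the fits without 1 library. Of these genes 5 had day 24 libraries wholly below day 22 beside 8.1% of all genes, none was called with all libraries by edgeR or DESeq2 and 2 had an unadjusted p under 0.05. Of 26 Sertoli genes 7 were positive, 1 had no overlap downward, below that share, none was called by either tool and none had an unadjusted p under 0.05.

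Most matrix, Leydig, peritubular and macrophage genes had positive log2 fold changes in KO that did not pass the test, and the scores of these lists were lowest in KO_d22_4. Over all genes 54.7% were positive and 11.8% had no overlap upward. Of 30 extracellular matrix genes 28 were positive, 12 had no overlap upward, 7 had an unadjusted p under 0.05 and none was called by edgeR or DESeq2, with a median of 0.30 and, without KO_d22_4, of 0.17. *Col1a1*, of type I collagen, lay at 277, 102, 172 and 75.6 CPM at day 22 and at 479 and 418 CPM at day 24 (log2 fold change 1.52 ± 0.51, edgeR adjusted p = 0.274). *Col1a2*, its partner chain, lay at 510, 227, 360 and 159 CPM and then at 702 and 590 CPM (edgeR adjusted p = 0.371). KO_d22_4 was lowest for both collagen chains and KO_d22_2 second lowest. Of 15 Leydig cell genes 14 were positive and 3 had no overlap, none had an unadjusted p under 0.05 and neither tool called any. The median of 0.35 was 0.15 without KO_d22_4 and 0.21 without KO_d24_2. *Cyp11a1*, the side-chain cleavage enzyme that begins steroid synthesis, lay at 145, 165, 175 and 78.4 CPM and then at 208 and 274 CPM (edgeR adjusted p = 0.684). All 15 peritubular genes were positive with a median of 0.23, or of 0.10 with 10 of 15 positive without KO_d22_4. Of 14 macrophage genes 12 were positive, or 8 without KO_d22_4, where their median of 0.23 became 0.04. Of 14 endothelial genes 10 were positive, or 8 without KO_d22_4, with a median of 0.14, 2 were higher and 1 lower at an unadjusted p under 0.05 and neither tool called any. With KO_d22_2 left out edgeR called 1, beside 3.41% of all genes called higher there. With KO_d24_2 left out the median of the endothelial genes was 0.06. The one with the lowest p, *Kdr*, a VEGF receptor of endothelium, lay at 8.23, 6.49, 6.13 and 4.89 CPM and then at 17.9 and 9.22 CPM (log2 fold change 1.07 ± 0.29, edgeR adjusted p = 0.126). The 4 haemoglobin genes of the blood list were at 0 in every library of these days. They have near-identical copies and pairs with several alignments were discarded, so a 0 does not show that blood RNA was absent. The blood list as a whole summed to between 10.8 and 22.1 CPM in the day 22 KO libraries.

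The same interval in WT testis gave 1010 genes higher and 7 lower (edgeR, adjusted p under 0.05), which is 5.88% and 0.0408% of the 17170 genes, and both day 24 libraries lay above all 4 day 22 libraries for 18.3% of genes and below them for 13.1%. Every one of the 69 genes called in KO had a positive log2 fold change in WT, where 61 had no overlap upward and 31 were called, and their median fitted log2 fold change was 2.40 in KO and 1.78 in WT, where 6 of them had no count at day 22. Since the 69 were chosen for their KO values, the larger KO median is a description only. Of the 1010 genes that rose in WT, 996 were positive in KO, 539 had day 24 KO libraries wholly above day 22 and 31 were called, with a median of 2.23 in WT and 0.95 in KO. These genes were in turn chosen for their WT values. The WT count was 171 without WT_d24_1, 526 without WT_d24_2, 490 without WT_d22_2, 518 without WT_d22_3 and 529 without WT_d22_4. The spermatid lists had larger medians in WT, 5.08 against 2.87 for nuclear compaction, 2.69 against 1.46 for elongating spermatids and 2.07 against 0.89 for round spermatids, and their scores started from a lower day 22 level there, with -1.22 ± 0.42 (SD, n = 4) in WT and 0.48 ± 1.32 (SD, n = 4) in KO for elongating spermatids.

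**Figure D5:**
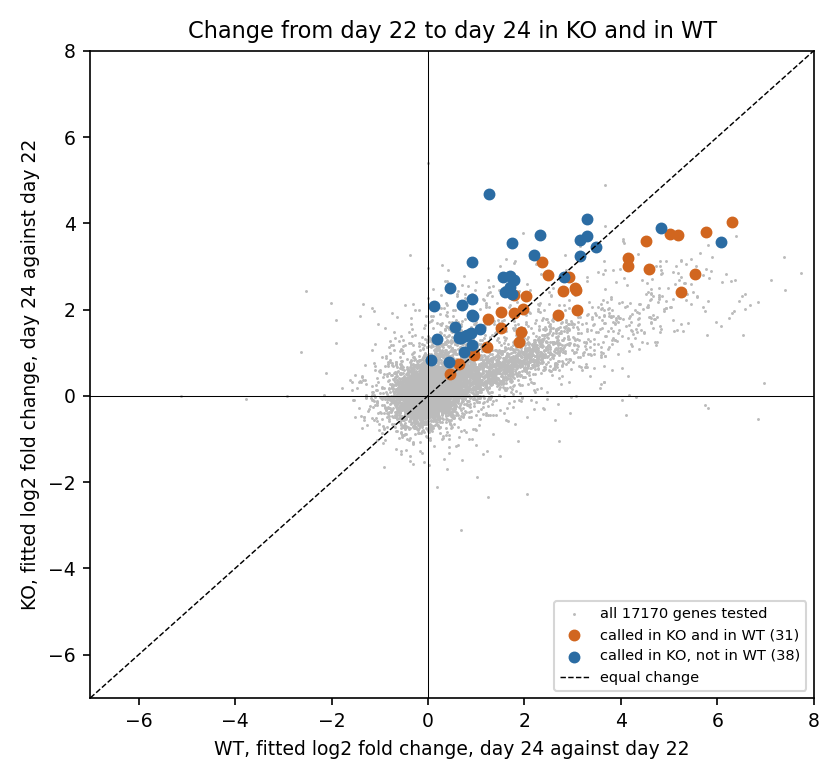
Fitted log2 fold change of day 24 against day 22 in KO (vertical) and in WT (horizontal) for all 17170 tested genes in grey, with the 31 genes called in both genotypes in orange and the 38 called in KO alone in blue. All 69 called genes lie right of and above 0, and the dashed line marks an equal change.

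The test of the difference itself, the KO change minus the WT change, called no gene in edgeR (0% of 17170) and none in DESeq2, and 523 genes (3.05%) had an unadjusted p under 0.05, fewer than the 858.5 that 5% of the tested genes make. No rise or fall of this interval was thus shown to differ between KO and WT. Of the 69 genes 11 had an unadjusted p under 0.05 for the difference, 9 with the larger change in KO and 2 with the larger change in WT. The 69 were chosen for their KO change, which is part of this difference, so these counts are a description only. *Noxred1* had a log2 fold change of 2.50 in KO and 0.45 in WT (unadjusted p = 0.00124 in edgeR, adjusted p near 1). *Cilp*, a cartilage matrix protein gene, lay at 1.57, 0.601, 0.791 and 0.670 CPM in KO at day 22 and at 4.70 and 3.07 CPM at day 24, while its WT means were 6.83 and 7.41 CPM (unadjusted p = 0.000874 in edgeR). *Skp2* changed by 0.84 in KO and 0.06 in WT on the log2 scale. The lowest p values for the difference were those of *Npas3*, *Zscan10*, *Ppp6r2*, *Cilp* and *Spint5*, and none passed the adjustment.

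Of the 740 tested genes on X or Y 1 was called, *1700012L04Rik* on the X, and the other called genes that could be placed, 67, were autosomal. Genes of X and Y had a median log2 fold change of 0.032 and autosomal genes one of 0.027. The difference of 0.0046 ran from -0.073 to 0.050 when each of the 6 libraries was left out, taking either sign. Day 24 libraries lay wholly above day 22 for 8.78% of sex-chromosome genes and for 11.9% of autosomal genes.

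Set in the full series, the 69 genes had KO group means with a median of 0.624 CPM at day 20 and 1.05 CPM at day 22, which was 5.90 CPM at day 24 and 11.9 CPM at day 26. In WT the same medians were 0.534, 0.610, 2.27 and 11.4 CPM. The KO day 26 mean lay above the day 24 mean for 66 of the 69 genes, and the KO day 20 mean lay below the day 22 mean for 57. The medians of the genotypes were close at days 20 and 26, and the KO median was the higher at days 22 and 24, which are the days that chose the genes.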

How the data were processed

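Total RNA, labelled as from testis, was sequenced in 24 libraries as stranded paired reads after depletion of ribosomal RNA. The authors aligned the reads with STAR 2.7.11b to mm10 and counted uniquely assigned pairs per gene on the sense strand with HTSeq, and the deposited values are these raw counts per gene. Pairs not wholly within the exons of a gene (49.8% to 54.8% of the pairs listed for the 6 KO libraries) and with several alignments were tallied apart and left out. The counts of 24456 genes were fitted with edgeR 4.0.16 in R 4.3.3 (TMM scaling, filterByExpr with a minimum count of 10, 8 groups of genotype and day in 1 robust quasi-likelihood fit over 24 libraries), which kept 17170 genes, and Benjamini-Hochberg adjustment was made over all of them. SE is that of the log2 fold change. Named genes were the 5 with the lowest p (a sixth shares the adjusted p of the last 4), the 10 largest called rises with a mean of at least 1 CPM, the 10 falls with the lowest p and list genes with the lowest p, together with called genes of known role chosen after their values were seen. The members and lists were chosen with earlier results of these data known. No pair of libraries was identical. The test was checked on simulated counts. Alternatives were RLE scaling, no filter, DESeq2 1.42.0, the compared groups alone, a replicate block and leaving out each library. One list gene that the naming rule would give is not reported here.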

Additional observations from a re-analysis of the deposited data

Results flagged for a closer look

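The epididymis score of the day 22 KO libraries held 1 library far from the others: KO_d22_1 stood at 2.50 and the next library at -1.57, a gap of 0.917 of the whole range, more than Dixon's test allows for 4 samples. Chance marks about 1 group in 20 in this way, a rate that holds for normal values and a group chosen beforehand. Every other group of genotype and day also held a library with a score of at least 1.75 and a library with a negative score.

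*Npas3*, a neuronal transcription factor gene, moved in opposite directions in the 2 genotypes, with a log2 fold change of 0.63 in KO and -0.42 in WT, a difference of 1.05. It lay at 4.42, 4.63, 4.28 and 5.10 CPM in the day 22 KO libraries and at 6.63 and 7.65 CPM at day 24. The edgeR test of the difference gave an unadjusted p of 0.000659, the lowest of all 17170 genes, and an adjusted p near 1.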

How the results depend on the processing

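The count of 69 genes called in KO was 108 with DESeq2 and 0 with only the compared groups in the fit, and it lay between 0 and 597 when 1 library was left out. In WT the count of 1017 was 1561 with only the compared groups and lay between 171 and 918 with 1 library left out. The difference between the genotypes called 0 genes with each library left out in turn except WT_d24_1, without which it called 1. The 2 called list genes were 0 without the filter, 6 with DESeq2, 0 with only the compared groups, 4 without WT_d20_2 in the shared spread (*Tssk6* not among them) and between 0 and 43 with 1 library left out. With the replicate number as a block, 0 KO genes were called (1912 at an unadjusted p under 0.05), 657 WT genes and 0 list genes. Only 2 numbers are shared by the KO days, same-numbered libraries deviated with correlations of -0.331 and -0.202, and nothing in the labels says that a number pairs them. Of the named genes 27 (*Atad2* and those with the largest or best supported rises and falls) were followed through the alternatives and none changed sign. For the rises and falls among them the libraries of the 2 days did not overlap, so leaving out 1 library could hardly turn the sign. The cause of the changes in the counts of called genes was not tested. With 2 libraries at day 24 the spread there rests on a single difference, and values near 3 counts, 0.180 to 0.207 CPM, are imprecise.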
